A study of Mus musculus with 18 samples.

Results

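The comparison of Adar1-2KO with wild type brain on Oxford Nanopore (ONT) long reads set 3 Adar1-2KO libraries, replicates 1, 2 and 3, beside 2 wild type libraries, replicates 2 and 3. Wild type replicate 1 was not analysed here. The circular RNAs (circles) tested were those with 5 or more reads in at least 2 of these 5 libraries, which held for 9500 of the 103642 circles listed in them. Reads were also summed per host gene, the gene whose exons or introns form the circle, and 5170 of 12021 host genes met the same minimum. Because Adar1-2KO replicate 3 stood apart from every other library, results are given with it (5 libraries) and without it (4 libraries).

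All libraries came from whole brains of male C57BL/6J mice aged 3 to 4 months, and the series' design text calls the replicates biological. The wild type mice carried no engineered allele. The Adar1-2KO mice were Adar1E861A/E861A Ifih-/- Adar2-/- Gria2R/R, which the series describes as an ADAR1 without catalytic activity together with loss of ADAR2. These mice also lacked the double-stranded RNA sensor gene Ifih1 (Ifih in the label) and carried Gria2R. The effects of the 4 alleles cannot be told apart in this comparison, since they differ between the groups together. Per the labels' protocols, 5 µg of RNA was treated with RNase R, which degrades linear RNA. It was then copied by rolling reverse transcription from random hexamers and amplified for 14 PCR cycles.

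Circles form when a downstream splice donor joins an upstream acceptor, the back-splice junction, which pairing between inverted repeats in the flanking introns favours. ADAR1, encoded by Adar, and ADAR2, encoded by Adarb1, convert adenosine to inosine in double-stranded RNA, and such editing can weaken that pairing. In brain, ADAR2 recodes the AMPA receptor subunit gene Gria2, and ADAR1 keeps cellular double-stranded RNA from activating the sensor MDA5, the product of Ifih1. Circles lack free ends, outlive most linear RNA and accumulate in neurons, many of them from synaptic genes. In whole brain, fewer cells of a type and less RNA per cell cannot be told apart.

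The junctions below are those of circles on which the results turn, each the most read circle of its gene except the second of Gabra2, and each written 5′ to 3′ as RNA sense DNA letters, 15 bases before the back-splice in lower case and 15 bases after it in capitals. They were read from GENCODE M21 transcripts of GRCm38 whose exon and gap lengths matched the circle, which succeeded for 14 of 16 circles tried. Coordinates are those of the files, on GRCm39 per the submitters' processing notes. Wdr49, exons 4 to 6 of 15, and Zbtb20, exons 2 to 5 of 7, carry circles listed in both wild type libraries and in no Adar1-2KO library. The Gabra2 circles share the last exon, 8 of 10, and begin at exon 4 or at exon 5, so their sequences differ only after the junction. Lrp1b, exons 67 to 71 of 91, Klhdc2, exons 3 to 5 of 9, and Zmym4, exons 3 to 5 of 30, carry circles with more reads relative to depth in Adar1-2KO replicates 1 and 2 than in wild type. Slc41a2, exons 2 to 3 of 11, and Ccser2, exons 2 to 3 of 11, carry circles with fewer.
Wdr49 chr3:75265654-75304408 (- strand): tgtaggctgggagagGTTTTGAGACTCTGG
Zbtb20 chr16:43390044-43398111 (+ strand): ccgggtcatctgattATGCAGCCACTCTCT
Gabra2 chr5:71163450-71192140 (- strand): caagaactgtgtttgACAGTATTACTGAAG
Gabra2 chr5:71163450-71171979 (- strand): caagaactgtgtttgGAGTATACAATAGAT
Lrp1b chr2:40615394-40641028 (- strand): agacatgtggcagagATAAAAAGACTTGTG
Klhdc2 chr12:69349098-69350736 (+ strand): gaaacatctttttggGAAGAAAATCAACAC
Zmym4 chr4:126816857-126819816 (- strand): cctgacaatgctcaaGTGGTGTCATGGATA
Slc41a2 chr10:83149279-83152653 (- strand): cgattatctactgcaATTGAATTCCTCTCT
Ccser2 chr14:36660541-36663221 (- strand): gaaatgaacagcataATTCTGTCAAGTTTT

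The libraries held 205273 and 186594 reads in wild type and 448511, 296959 and 673705 in Adar1-2KO. Adar1-2KO replicate 3 had the most reads, yet it listed 23441 circles against 46818 and 33077 in replicates 1 and 2. Its share of circles with 2 reads, the fewest the tables list, was 14.3%, against 42.4% to 47.9% in the other 4 libraries. Its circle counts correlated with those of the other libraries at Spearman's rho from 0.418 to 0.485 over the 9500 circles, and the other pairs at 0.614 to 0.700. Over host genes these values were 0.654 to 0.706 and 0.800 to 0.854. Circles are not independent replicates, so these are descriptions. Leaving out replicate 3 lowered the common dispersion, the squared variation between libraries of 1 group, from 0.711 to 0.118 for circles and from 0.376 to 0.0593 for host genes.

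**Figure D1:**
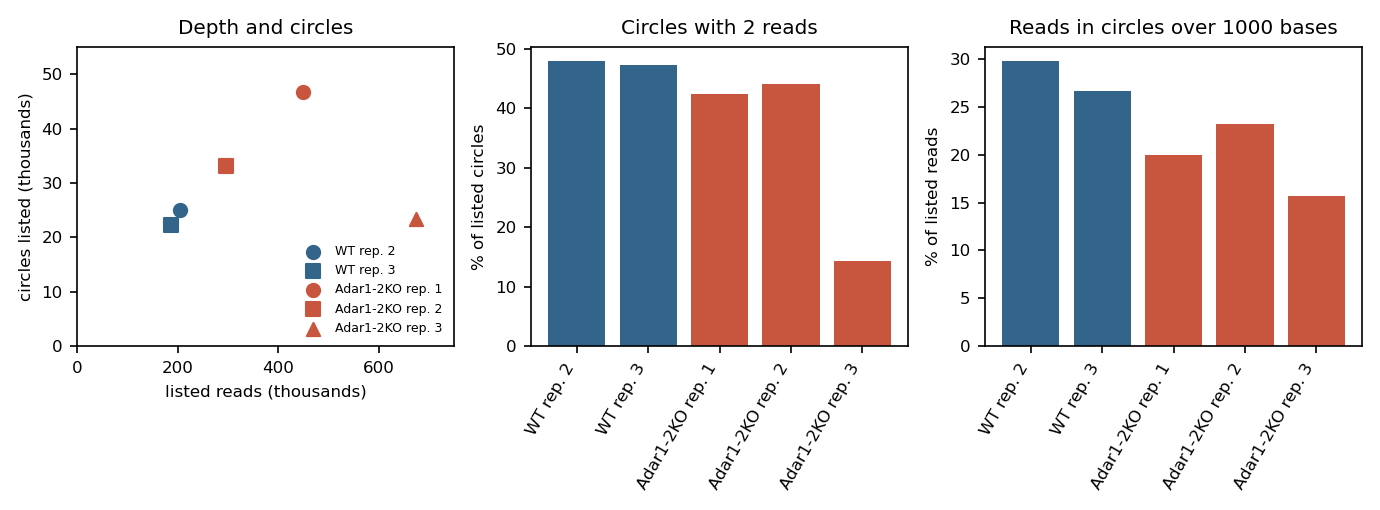
Left, circles listed against reads listed, both axes in units of 1000, 1 point per ONT library. Middle and right, bars per library for the percentage of listed circles with 2 reads and of reads in circles over 1000 bases. Adar1-2KO replicate 3 combines the highest read total, 673705, with 23441 listed circles, fewer than the 25085 of wild type replicate 2.

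Loss of Adar2 was checked first on Adarb1, whose only circle tested, chr10:77130537-77148360 (942 bases, 5 blocks, annotated as exon), was listed in the mutant and not in wild type. A read count of 0 stands for a circle that is not listed, in all values that follow. It had 0 and 0 reads in wild type and 27, 18 and 66 reads in Adar1-2KO. The difference did not pass on ONT with 5 libraries (edgeR quasi-likelihood test with Benjamini-Hochberg adjustment, adjusted p = 0.419) or with 4 (adjusted p = 0.140). On Illumina the same circle had 0, 0 and 0 reads in wild type and 288, 134 and 724 in Adar1-2KO. It passed there (same test, adjusted p = 0.0425), as did 9 of 28595 circles (0.0315%). The circle was also listed in all 3 Adar2KO ONT libraries, which share the Adar2 and Gria2 alleles, with 41, 38 and 27 reads. All Adarb1 circles together gave 3 and 5 reads in wild type and 37, 29 and 66 in Adar1-2KO. Their summed log2 difference was 2.14 ± 0.68 (SE; adjusted p = 0.511) with 5 libraries and 2.09 ± 0.59 (SE; adjusted p = 0.145) with 4. The labels do not say which part of Adarb1 was removed, so circle reads do not show whether the allele is null.

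Gria2, the AMPA receptor subunit that ADAR2 recodes, had 74 and 41 circle reads in wild type and 68, 66 and 146 in Adar1-2KO. Its log2 difference of -0.67 ± 0.31 (SE; adjusted p = 0.332) without replicate 3 did not pass. The most abundant Gria2 circle, chr3:80629339-80648505, had 36 and 18 reads in wild type and 12, 21 and 27 in the mutant (log2 difference -1.45 with 5 libraries, adjusted p = 0.932). Adar itself had 8 and 7 reads against 25, 19 and 4, with a log2 difference of 0.10 ± 1.05 (SE; adjusted p = 0.989) over 5 libraries. Its direction turned in some alternative fits, as the closing section gives. No Ifih1 circle was listed in any of the 5 libraries.

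Of the 9500 circles, 6 passed at an adjusted p under 0.05 with 5 libraries, which is 0.0632% of those tested: 5 lower (0.0526%) and 1 higher (0.0105%) in Adar1-2KO. With DESeq2 size factors or with no scaling factor the split was 5 lower and 0 higher. At an unadjusted p under 0.05, 474 circles were called (4.99%), and DESeq2 called 35. The 5 that fell were listed in both wild type libraries and in no Adar1-2KO library, and the circle that rose was listed in no wild type library. The tables list circles from 2 reads upward, so a circle that is not listed may still have had a read, and no fold is given for these. Without replicate 3, 3 of 8226 circles passed (0.0365%), all lower and all among the former 5, namely those of Malat1, Zbtb20 and Cplx2. At an unadjusted p under 0.05, 1083 circles (13.2%) were called in that fit.

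**Figure D2:**
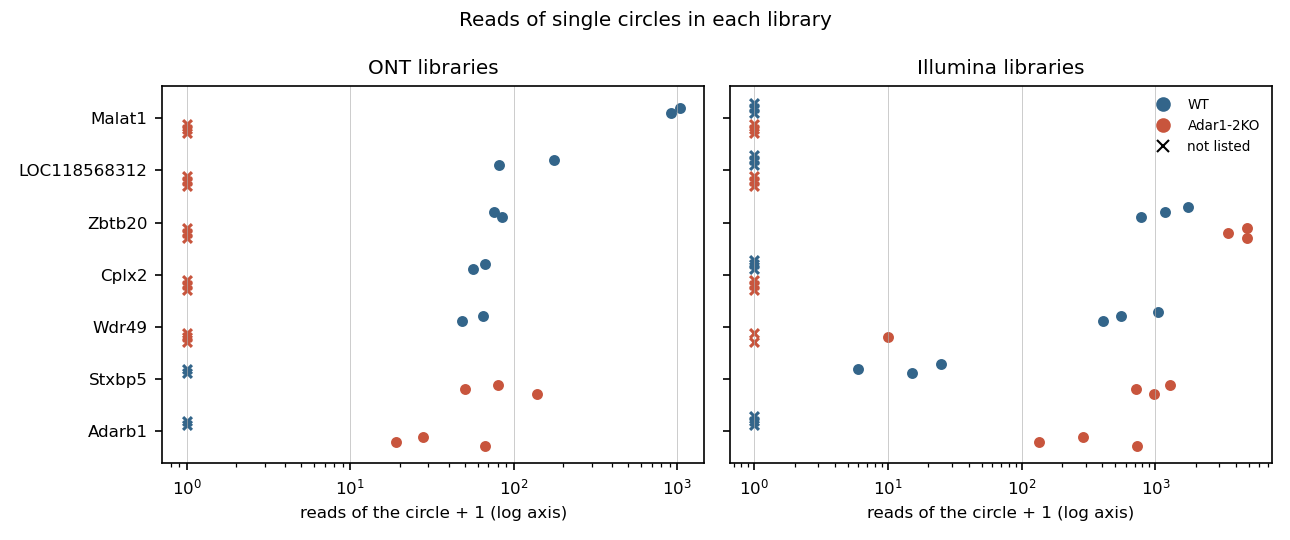
Reads plus 1, on a log axis, of the 6 circles that passed and of the Adarb1 circle, 1 point per library, for the 5 ONT libraries (left) and the 6 Illumina libraries (right), with crosses where a circle is not listed. On ONT the 5 lower circles have points in wild type and crosses in Adar1-2KO, and the Stxbp5 and Adarb1 circles the reverse.

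Wdr49, which encodes a WD-repeat protein, was the one host gene that passed with and without replicate 3. Its circle chr3:75265654-75304408 (515 bases, 3 exons) had 64 and 47 reads in wild type and 0, 0 and 0 reads in Adar1-2KO (adjusted p = 0.0456 with 5 libraries and 0.0504 with 4). Summed over its 3 listed circles, Wdr49 had 73 and 61 reads in wild type and 0, 0 and 2 in Adar1-2KO. The adjusted p of this sum was 0.00439 with 5 libraries and 0.00213 with 4. Both wild type libraries were above every mutant library. On Illumina, where the same genotypes were sequenced with 3 libraries each, the circle had 1039, 554 and 403 reads in wild type and 0, 9 and 0 in Adar1-2KO (adjusted p = 0.280, where 9 of 28595 circles, 0.0315%, passed). The Wdr49 sum there had 1427, 653 and 503 reads in wild type and 24, 15 and 9 in Adar1-2KO (adjusted p = 0.00284, where 5 of 8114 hosts, 0.0616%, passed). The circle was not listed in the 3 Adar2KO ONT libraries either.

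Wdr49 had been placed in a list of ependyma and choroid plexus genes, cells that line the ventricles. Of 22 genes in that list, 15 had reads and 7, among them the ciliary regulator Foxj1 and the choroid genes Folr1 and Kl, had none. With 5 libraries its 8 tested genes, Wdr49 included, summed to 894 to 932 CPM in wild type and 533 to 895 CPM in Adar1-2KO. CPM are counts per 1000000 host reads, after scaling. Without replicate 3, 7 were tested, Wdr49 included, with sums of 889 to 915 CPM in wild type and 507 to 526 CPM in Adar1-2KO. Wdr49 alone gave 391 and 357 CPM of these sums in wild type and 0 and 0 in Adar1-2KO. The lower sum is therefore not a result separate from Wdr49. Of the 7 genes, 2 were higher, and the median log2 difference was -0.35, against 0.08 over all hosts. The most abundant besides Wdr49 were Dnah11, Cfap54 and Dnah7b, genes of motile cilia. Without replicate 3 their log2 differences were -0.01 ± 0.27, 0.61 ± 0.64 and 1.13 ± 0.63 (SE; adjusted p = 0.994, 0.733 and 0.453). The part of these cells in the Wdr49 result was not tested.

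Malat1, a nuclear long non-coding RNA of high abundance, gave the called circle with the most reads. Its single-block circle chr19:5846207-5847448 (1242 bases) had 1034 and 917 reads in wild type and was not listed in Adar1-2KO (adjusted p = 0.00102 with 5 libraries). It passed in every fit that left out 1 mutant library and was below the read minimum when a wild type library was left out. Adar2KO replicate 1 had 1406 reads of it, and Adar2KO replicates 2 and 3 had none. In the fit of all 8 ONT libraries the Malat1 circle did not pass (adjusted p = 0.444). The circle was not listed on Illumina. Summed over 253 listed circles, Malat1 stood at 18978 and 19918 CPM in wild type and 12655, 12433 and 6994 CPM in Adar1-2KO. That is a log2 difference of -0.64 ± 0.09 (SE; adjusted p = 0.0224) without replicate 3 and -0.86 (adjusted p = 0.460) with it. Of the summed reads, the called circle gave 1034 of 3523 and 917 of 3388 in wild type. In Adar1-2KO it gave none of 5217, 3334 and 4353, so the sum is not a result separate from that circle.

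Zbtb20, a transcription repressor gene of hippocampal neurons and astrocytes, went opposite ways on the 2 platforms. Its circle chr16:43390044-43398111 had 75 and 84 ONT reads in wild type and was not listed in Adar1-2KO (adjusted p = 0.0389 with 5 libraries and 0.0297 with 4). On Illumina the same circle had 1764, 1172 and 778 reads in wild type and 4801, 3471 and 4868 in Adar1-2KO, a log2 difference of 1.41 ± 0.19 (SE; adjusted p = 0.0671). Summed per host, Zbtb20 fell on ONT by 2.50 on the log2 scale without replicate 3 (adjusted p = 0.0271) and rose on Illumina by 1.43 ± 0.17 (SE; adjusted p = 0.0218). Among the Adar2KO ONT libraries, replicate 2 had 168 reads of the circle and the other 2 had none. With all 8 ONT libraries in the fit the Zbtb20 circle did not pass (adjusted p = 0.460). Of the Zbtb20 host reads on ONT, it gave 75 of 91 and 84 of 95 in wild type. In Adar1-2KO it gave none of 21, 39 and 42, so the ONT host fall is not a result separate from this circle. The other Zbtb20 circle tested had a log2 difference of 0.39 without replicate 3 and -0.12 with it.

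Cplx2 encodes complexin 2, which binds the synaptic SNARE complex. Its circle chr13:54526636-54527743 (584 bases) had 66 and 55 reads in wild type and none listed in Adar1-2KO (adjusted p = 0.0414). Another circle with both ends within 20 bases of it had 31 reads in Adar1-2KO replicate 1. With circles that close merged, the Cplx2 circle did not pass (adjusted p = 0.934). Cplx2 as a host stood at 426 and 412 CPM in wild type and 153, 82.0 and 178 CPM in Adar1-2KO, so its groups did not overlap. Of the Cplx2 host reads, the called circle gave 66 of 79 and 55 of 70 in wild type. In Adar1-2KO it gave none of 63, 22 and 111, so the host fall rests on that circle. The antisense circle chr17:40155251-40156559 at LOC118568312 had 176 and 80 reads in wild type and none listed in the mutant (adjusted p = 0.0414). The LOC118568312 sum had 208 and 169 reads in wild type and 90, 899 and 345 in Adar1-2KO, so the groups of the sum overlapped.

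Stxbp5 encodes tomosyn, an inhibitor of SNARE assembly at synapses, and gave the only circle that rose. The circle chr10:9717615-9744497 (501 bases, 5 blocks, annotated as intron) had 0 and 0 reads in wild type and 79, 49 and 137 reads in Adar1-2KO (adjusted p = 0.0456 with 5 libraries and 0.0786 with 4). The 3 Adar2KO libraries had 2, 0 and 7 reads of it. On Illumina it had 24, 5 and 14 reads in wild type and 1292, 713 and 973 in Adar1-2KO, a log2 difference of 5.65 ± 0.58 (SE; adjusted p = 0.0115). All Stxbp5 circles together had 42 and 50 reads in wild type and 257, 129 and 299 in Adar1-2KO, a log2 difference of 1.09 ± 0.23 (SE; adjusted p = 0.0713) without replicate 3 and 1.02 with it (adjusted p = 0.425). The call of this circle was lost when any one of the 5 libraries was left out. The calls of the Zbtb20 and Cplx2 circles were lost without Adar1-2KO replicate 1 (adjusted p = 0.172 and 0.199) or 2 (0.171 and 0.210), and those of Wdr49 and LOC118568312 without any one of the 3 mutant libraries.

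Below the threshold, the circles of lowest p on the higher side included one of Lrp1b, a large lipoprotein receptor of neurons. The Lrp1b circle chr2:40615394-40641028 had 15 and 26 reads in wild type and 262, 121 and 442 reads in Adar1-2KO. Its log2 difference was 2.53 ± 0.39 (SE; adjusted p = 0.259) with 5 libraries and 2.36 ± 0.35 (SE; adjusted p = 0.104) with 4, and 2.58 ± 0.25 (SE; adjusted p = 0.0115) on Illumina. The Adar2KO libraries had 21, 15 and 35 reads of it. Of the 18 Lrp1b circles tested with 5 libraries 11 were higher and 7 lower, none passed, and the summed host had a log2 difference of 0.31 with 5 libraries (adjusted p = 0.741). Mllt10, a cofactor of histone methylation, had a circle, chr2:18127056-18131040, with 8 and 10 reads in wild type and 86, 79 and 147 reads in Adar1-2KO, a log2 difference of 2.42 ± 0.39 (SE; adjusted p = 0.321) with 5 libraries. In both circles every mutant library was above both wild type libraries, which also held, in either direction, for 24.8% of all circles tested.

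On the lower side, the calmodulin gene Calm3 had a circle, chr7:16650623-16651621, with 54 and 38 reads in wild type and none listed in the mutant (adjusted p = 0.0625). Circles assigned to no gene, chr17:40154866-40156230 and chr9:65593636-65595052, had 27 and 31 and 28 and 19 reads in wild type and none listed in Adar1-2KO (adjusted p = 0.243 and 0.413). Near the latter, another circle with ends within 20 bases had 33 reads in Adar1-2KO replicate 1. Without replicate 3, the Zmym4 circle chr4:126816857-126819816 was also among those of lowest p, with 206 and 195 reads in wild type and 1083, 818 and 974 reads in Adar1-2KO (log2 difference 1.45 ± 0.14 (SE; adjusted p = 0.0586)).

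Whether a circle was listed at all varied between replicates of 1 group, and differed by splice signal. Most tested circles, 7772, carried the splice signal AG-GT, and 1381 carried AG-GT with an asterisk, a mark the files do not define. Of circles with 20 or more reads in wild type replicate 2 or 3, 1.13% of plain AG-GT circles (17 of 1507) and 27.7% of asterisked ones (48 of 173) were not listed in the other. Between Adar1-2KO replicates 1 and 2 these shares were 2.20% and 35.5%. Against replicate 3 they were 21.7% to 25.3% and 81.8% to 83.0%. Of tested plain AG-GT circles 97.9% were also listed on Illumina, against 43.2% of asterisked ones. Among the 6 circles that passed, Wdr49 and Zbtb20 had the plain signal, and Malat1, Cplx2 and Stxbp5 the asterisked one, while LOC118568312 had AG-GC with an asterisk. For host genes the share with 20 or more reads in one library and none in the other was 0.474% between the wild type libraries, 0.434% between Adar1-2KO replicates 1 and 2, and 9.30% and 12.2% between these and replicate 3.

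Summed per host gene, 1 of 5170 genes (0.0193%), Wdr49, passed with 5 libraries, and 381 (7.37%) had an unadjusted p under 0.05. DESeq2 called 33. Without replicate 3, 46 of 4563 genes passed (1.01%), 18 higher (0.394%) and 28 lower (0.614%), and 721 (15.8%) had an unadjusted p under 0.05. Replicate 3 took no part in choosing these 46. In the fit that included it the sign was the same for 18 of 18 and 28 of 28, as the other libraries in that fit are shared. All 46 had groups apart without replicate 3. With it added they stayed apart in 11 of the 18 (61.1%) and 27 of the 28 (96.4%). Of all host genes apart without it, called or not, 692 of 1305 higher ones (53.0%) and 614 of 893 lower ones (68.8%) stayed apart.

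**Figure D3:**
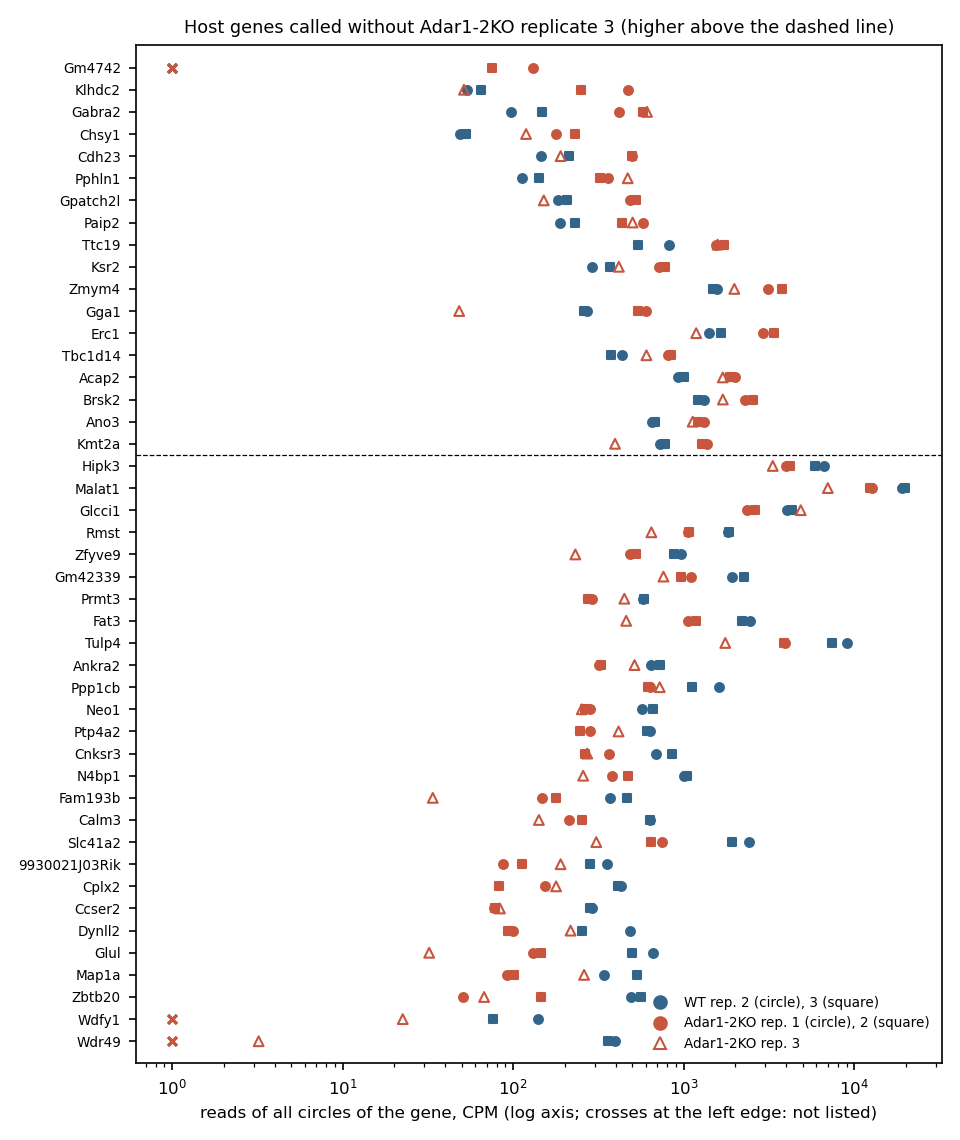
Level in CPM (log axis) of 45 of the 46 host genes that passed without Adar1-2KO replicate 3, 1 point per library, with wild type in blue, Adar1-2KO replicates 1 and 2 in red and replicate 3 as an open triangle, and crosses where nothing is listed. For Gabra2, Slc41a2 and Ccser2 the triangle lies on the side of the other mutant libraries, and for Klhdc2 and Gga1 it does not.

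Gabra2, which encodes the alpha 2 subunit of the GABA type A receptor, rose. It stood at 97.0 and 147 CPM in wild type and 419.6, 578 and 609 CPM in Adar1-2KO. Every mutant library was above both wild type libraries. The log2 difference was 2.02 ± 0.28 (SE; adjusted p = 0.0224) without replicate 3, 2.14 (adjusted p = 0.231) with it, and 2.07 ± 0.21 (SE; adjusted p = 0.0111) on Illumina. The Gabra2 circle of exons 4 to 8, chr5:71163450-71192140, had 14 and 17 reads in wild type and 97, 63 and 223 reads in Adar1-2KO. The circle of exons 5 to 8, chr5:71163450-71171979, had 0 and 0 reads in wild type and 29, 33 and 44 reads in Adar1-2KO. Neither circle passed alone on ONT (adjusted p = 0.123 and 0.123 without replicate 3). On Illumina the shorter circle had 0, 0 and 0 reads in wild type and 390, 131 and 311 in Adar1-2KO (adjusted p = 0.0453). The Adar2KO ONT libraries also listed the shorter circle, with 28, 26 and 30 reads.

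Erc1, a scaffold of the presynaptic active zone, stood at 1406 and 1664 CPM in wild type and 2913, 3375 and 1182 CPM in Adar1-2KO, with a log2 difference of 1.03 ± 0.14 (SE; adjusted p = 0.0224). Replicate 3 was below both wild type libraries, so the groups overlapped once it was included. Brsk2, a kinase of neuronal polarity, stood at 1309 and 1211 CPM in wild type and 2292, 2551 and 1695 CPM in Adar1-2KO, a log2 difference of 0.93 ± 0.14 (SE; adjusted p = 0.0253), with no overlap. Ano3, an anoctamin membrane protein, was at 652 and 676 CPM in wild type and 1307, 1219 and 1128 CPM in Adar1-2KO (0.92 ± 0.15 (SE; adjusted p = 0.0324)). Ksr2, a scaffold of the MAP kinase cascade, was at 291 and 370.4 CPM in wild type and 713, 779 and 416 CPM in Adar1-2KO (1.17 ± 0.19 (SE; adjusted p = 0.0319)). With replicate 3 included the log2 differences were 0.70 for Erc1, 0.79 for Brsk2, 0.88 for Ano3 and 0.94 for Ksr2, and none passed (adjusted p from 0.396 to 0.724).

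Klhdc2, Paip2, Pphln1, the zinc finger gene Zmym4 and Kmt2a rose as well. Klhdc2, a substrate receptor of a cullin ubiquitin ligase, was at 53.9 and 64.7 CPM in wild type and 473, 249.9 and 51.4 CPM in Adar1-2KO, a log2 difference of 2.62 ± 0.41 (SE; adjusted p = 0.0304), with replicate 3 just below both wild type libraries. Paip2, which represses poly(A)-binding protein, was at 189 and 229 CPM in wild type and 575, 436 and 501 CPM in Adar1-2KO (1.28 ± 0.24 (SE; adjusted p = 0.0465)). Pphln1, a component of the HUSH silencing complex, was at 113 and 141 CPM in wild type and 359, 321 and 469 CPM in Adar1-2KO (1.42 ± 0.26 (SE; adjusted p = 0.0450)). Zmym4 was at 1568 and 1482 CPM in wild type and 3117, 3767 and 1979 CPM in Adar1-2KO, a log2 difference of 1.17 ± 0.14 (SE; adjusted p = 0.0159) on ONT and of 0.04 ± 0.17 (SE; adjusted p = 0.999) on Illumina. Kmt2a, a histone H3 lysine methyltransferase, was at 722 and 776 CPM in wild type and 1371, 1272 and 395 CPM in Adar1-2KO (0.81 ± 0.15 (SE; adjusted p = 0.0498)), with replicate 3 below wild type. With replicate 3 included the log2 differences were 2.11 for Klhdc2, 1.27 for Paip2, 1.59 for Pphln1, 0.95 for Zmym4 and 0.43 for Kmt2a, and none passed (adjusted p from 0.286 to 0.877).

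Further host genes that rose were Ttc19, Acap2, Chsy1, Cdh23, Gpatch2l and Gm4742. Ttc19, an assembly factor of mitochondrial complex III, was at 824 and 541 CPM in wild type and 1543, 1730.4 and 1578 CPM in Adar1-2KO (1.25 ± 0.20 (SE; adjusted p = 0.0319)). Acap2, which turns off the small GTPase Arf6, was at 927 and 999 CPM in wild type and 1999, 1861 and 1693 CPM in Adar1-2KO (0.998 ± 0.144 (SE; adjusted p = 0.0246)). Chsy1, a chondroitin synthase, was at 48.5 and 52.9 CPM in wild type and 177, 231 and 119 CPM in Adar1-2KO (1.98 ± 0.36 (SE; adjusted p = 0.0458)). In these 3 genes all mutant libraries were above both wild type libraries. Cdh23, an adhesion gene of hair cell tip links, was at 145 and 212 CPM in wild type and 495, 499.7 and 189.6 CPM in Adar1-2KO (1.48 ± 0.23 (SE; adjusted p = 0.0304)). Gpatch2l was at 183 and 206 CPM in wild type and 485, 526 and 151 CPM in Adar1-2KO (1.37 ± 0.20 (SE; adjusted p = 0.0266)). For Cdh23 and Gpatch2l, replicate 3 fell within or below the wild type values. With replicate 3 in the fit the log2 differences were 1.24 for Ttc19, 0.94 for Acap2, 1.78 for Chsy1, 1.14 for Cdh23 and 0.98 for Gpatch2l, and none passed (adjusted p from 0.231 to 0.700). Gm4742, a predicted gene, had 54, 20 and 0 reads in Adar1-2KO and none listed in wild type (adjusted p = 0.0450 without replicate 3).

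Among the lower hosts were the astrocyte gene Glul and the transport gene Slc41a2. Glul, the glutamine synthetase of astrocytes, stood at 663 and 499.7 CPM in wild type and 131, 145 and 32.1 CPM in Adar1-2KO, a log2 difference of -2.08 ± 0.23 (SE; adjusted p = 0.0125). Slc41a2, a magnesium transporter gene, was at 2397 and 1911 CPM in wild type and 749.5, 645 and 307 CPM in Adar1-2KO (-1.63 ± 0.17 (SE; adjusted p = 0.0125)). All mutant libraries were below both wild type libraries in both genes. With 5 libraries the log2 differences were -2.54 for Glul (adjusted p = 0.286) and -1.93 for Slc41a2 (adjusted p = 0.231). No Glul read came from a plain AG-GT circle, so its call rests on the splice classes whose listing varied more between replicates. On Illumina Glul had 10, 5 and 5 reads in wild type and 2, 10 and 0 in Adar1-2KO (adjusted p = 0.999). The Slc41a2 circle chr10:83149279-83152653 had 156 and 128 reads in wild type and 115, 54 and 73 reads in Adar1-2KO, and 5 of the 6 Slc41a2 circles tested without replicate 3 had negative log2 differences. On Illumina the Slc41a2 sum differed by -0.65 ± 0.22 (SE; adjusted p = 0.880).

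Map1a, Dynll2, Calm3 and Cplx2 fell as well. Map1a, a microtubule-associated protein of dendrites, was at 339 and 535 CPM in wild type and 92.2, 101 and 260.3 CPM in Adar1-2KO (-2.18 ± 0.29 (SE; adjusted p = 0.0201)). Dynll2, a light chain of dynein and myosin V, was at 485 and 253 CPM in wild type and 99.5, 93.2 and 217 CPM in Adar1-2KO (-1.94 ± 0.34 (SE; adjusted p = 0.0384)). Calm3, one of the calmodulin genes, was at 636 and 635 CPM in wild type and 213, 254 and 141 CPM in Adar1-2KO (-1.46 ± 0.19 (SE; adjusted p = 0.0201)). Cplx2, given above, had a log2 difference of -1.79 ± 0.30 (SE; adjusted p = 0.0343). With replicate 3 in the fit the log2 differences were -1.50 for Map1a, -1.41 for Dynll2, -1.66 for Calm3 and -1.58 for Cplx2, and none passed (adjusted p from 0.231 to 0.519). In Map1a 0.525% of circle reads came from plain AG-GT circles, and in the other 3 hosts none, so these calls rest on circles of the splice classes whose listing varied more between replicates.

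Ccser2, a coiled-coil gene, was at 291 and 282 CPM in wild type and 77.6, 78.3 and 83.5 CPM in Adar1-2KO, a log2 difference of -1.88 ± 0.28 (SE; adjusted p = 0.0253) on ONT and of -2.40 ± 0.31 (SE; adjusted p = 0.0405) on Illumina. Its circle chr14:36660541-36663221 had 23 and 20 reads in wild type and 6, 9 and 4 reads in Adar1-2KO. Both readouts were lower in the mutant. Wdfy1, an endosomal adaptor gene, had 26 and 13 reads in wild type and 0, 0 and 14 in Adar1-2KO (adjusted p = 0.0324 without replicate 3). The uncharacterised 9930021J03Rik was at 356 and 282 CPM in wild type and 87.3, 112 and 189.6 CPM in Adar1-2KO (-1.70 ± 0.28 (SE; adjusted p = 0.0321)). N4bp1, whose product binds the ubiquitin ligase NEDD4, fell by 1.28 (adjusted p = 0.0201). Smaller falls were seen in Tulp4, at 9093 and 7396 CPM in wild type and 3932, 3859.8 and 1751 CPM in Adar1-2KO (-1.09 ± 0.13 (SE; adjusted p = 0.0159)), in the long non-coding Rmst, at 1826 and 1840.2 CPM in wild type and 1065, 1074 and 646 CPM in Adar1-2KO (-0.78 ± 0.14 (SE; adjusted p = 0.0362)), and in Hipk3, a kinase gene known for an abundant circle, at 6663 and 5885 CPM in wild type and 3959, 4184 and 3326 CPM in Adar1-2KO (-0.63 ± 0.12 (SE; adjusted p = 0.0450)). None of these 3 passed with the correction for circle length given further on, and Rmst did not pass on plain AG-GT circles alone (-0.46, adjusted p = 0.334). With replicate 3 included the log2 differences were -1.84 for Ccser2, -1.28 for 9930021J03Rik, -1.47 for N4bp1, -1.38 for Tulp4, -0.98 for Rmst and -0.72 for Hipk3, and none passed (adjusted p from 0.231 to 0.497).

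None of the 46 host calls held without wild type replicate 3. Without it the adjusted p of each one still tested was 0.281, and Wdr49 and Wdfy1 were below the read minimum. Without wild type replicate 2, 18 of the 18 rises and 26 of the 28 falls remained, without Adar1-2KO replicate 1, 17 and 28, and without Adar1-2KO replicate 2, 17 and 28. DESeq2 called 17 of the 18 and 27 of the 28, among a larger number of hosts given in the closing section. On Illumina 16 of the 18 and 27 of the 28 were tested. Gabra2, Wdr49, Ccser2 and Zbtb20 passed there, the last with the opposite sign, where 5 of 8114 hosts (0.0616%) passed. The ONT and Illumina libraries carry the same replicate numbers and kind of cDNA, so one is not taken as independent of the other.

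Circle length moved with the comparison. The mean circle length of the 18 higher hosts had a median of 403 bases, and that of the 28 lower hosts 951 bases, against 695 over all 4563 hosts. None of the 18 and 10 of the 28 had a mean above 1000 bases, as had 14.9% of all hosts. At 500 bases or less were 13 of the 18 and 2 of the 28, against 19.4% of all. Over all hosts, called or not, the median log2 difference was 0.71 for 71 hosts of at most 250 bases, 0.39 for 814 hosts of over 250 to 500, 0.09 for 2996 hosts of over 500 to 1000 and -0.35 for 682 hosts above 1000. Among circles these medians were 0.66, 0.33, 0.04 and -0.34. With a correction for circle length, 5 of the 18 and 16 of the 28 still passed, among them Gabra2, Zmym4, Slc41a2, Glul and Wdr49, and 13 and 12 did not. In 9 of those 25 the log2 difference shrank by over 1.5 times. Rmst went from -0.78 to -0.32 (adjusted p = 0.348), Fat3 from -1.07 to -0.32 (0.304), Zfyve9 from -0.88 to -0.35 (0.355) and Tulp4 from -1.09 to -0.51 (0.0625). Hipk3 went from -0.63 to -0.33 (0.190), N4bp1 from -1.28 to -0.78 (0.0685), Brsk2 from 0.93 to 0.45 (0.217), Kmt2a from 0.81 to 0.47 (0.191) and Acap2 from 0.998 to 0.643 (0.0613). In others the call was lost with the log2 difference nearly as large, as in Chsy1, from 1.98 to 1.76 (adjusted p = 0.0685).

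**Figure D4:**
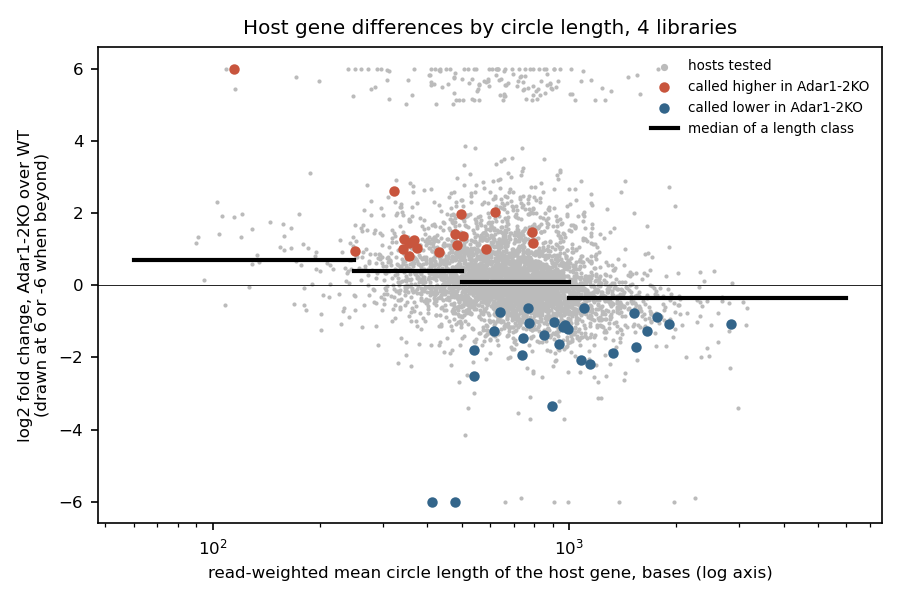
Log2 difference of host genes, Adar1-2KO against wild type without replicate 3, by the mean length of their circles in bases (log axis), 1 point per host gene, the called ones coloured and values beyond 6 or -6 drawn there. Black lines are class medians. Medians fall from 0.71 for the shortest class to -0.35 for hosts above 1000 bases.

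Per library, the median length of listed circles was 779 and 750 bases in wild type and 655, 683 and 636 in Adar1-2KO (764.5 ± 20.5 against 658 ± 23.6, SD, n = 2 and 3). The groups did not overlap, and the two-sided exact permutation test gave p = 0.1, the smallest 2 against 3 libraries allow (adjusted p = 0.36 over 12 measures). Reads in circles above 1000 bases made up 29.8% and 26.7% in wild type and 19.9%, 23.2% and 15.7% in Adar1-2KO, again without overlap (exact p = 0.2, adjusted 0.36). The Adar2KO libraries spanned both groups, at 22.3%, 33.3% and 23.4%. Circles expected after thinning each library to 186594 reads were 22891 and 22347 in wild type and 21128, 21680.1 and 15294 in Adar1-2KO (exact p = 0.3, adjusted 0.36). The share of reads in exon circles was 86.2% ± 0.840 in wild type and 84.3% ± 1.18 in Adar1-2KO (SD), in intron circles 3.67% ± 0.123 and 3.75% ± 0.0934, and in intergenic circles 7.92% ± 0.537 and 9.32% ± 1.25. None of the 12 measures reached an adjusted p under 0.36, and the design could not reach 0.05.

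None of the most abundant circles passed. The 10 with the highest mean level came from Rims1, Gigyf2, Kat6b, Zfp148, Ankrd12, Rbm4, Elf2, Hdgfl3, Snrk and Zfp609. Their log2 differences ran from -0.26 to 1.09 with 5 libraries and from -0.46 to 1.46 without replicate 3, and none of the 10 passed (lowest adjusted p = 0.818 and 0.106). Rims1, a scaffold of the presynaptic active zone, had the highest, with its circle chr1:22572480-22577704 at 517 and 668 reads in wild type and 2805, 2739 and 1394 in Adar1-2KO. In CPM these were 2429 and 3297 in wild type and 6641, 9461 and 2138 in Adar1-2KO, so replicate 3 lay below both wild type libraries. Zfp609, host of a well-known muscle and brain circle, had 2162 and 2591 reads against 5397, 4447 and 4868, a log2 difference of 0.05 with 5 libraries and 0.26 without replicate 3. Circles of Kat6b, Zfp148, Ankrd12, Rbm4, Elf2 and Snrk lay between -0.46 and 0.29 without replicate 3, Gigyf2 was at 0.42 and Hdgfl3 at 0.70. The Hdgfl3 circle was the 1 of the 10 whose groups did not overlap with 5 libraries, beside 24.8% of all circles tested. On Illumina the Rims1 and Hdgfl3 circles went the other way, at -0.39 each, and neither passed.

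Genes of RNA editing and of circle formation did not pass. For these and the following lists, the share called over all hosts without replicate 3 was 0.394% higher and 0.614% lower. Of 28 hosts of known recoding sites, 22 were tested, and none rose or fell without replicate 3 (median log2 difference -0.03, against 0.08 over all hosts). The most abundant were Unc80, a subunit of the sodium leak channel, at -0.17 ± 0.23 (SE; adjusted p = 0.794), the kainate receptor gene Grik2 at -0.13 ± 0.17 (SE; adjusted p = 0.784), Grik1, another kainate receptor gene, at 0.11 ± 0.19 (SE; adjusted p = 0.845) and Cadps, which primes dense-core vesicles, at -0.08 ± 0.22 (SE; adjusted p = 0.919). Of 46 splicing and circular RNA regulators, 39 were tested and none passed (median 0.20). Rbfox1, a neuronal splicing factor, came nearest, with 117 and 106 reads in wild type and 443, 293 and 306 in Adar1-2KO (0.78 ± 0.15 (SE; adjusted p = 0.0565)), and the muscleblind gene Mbnl2 was at -0.21 ± 0.18 (SE; adjusted p = 0.667). Of 29 genes of double-stranded RNA sensing and interferon, 16 had no listed circle, among them Ifih1, Eif2ak2, Mavs and Isg15, and 6 were tested. None of the 6 passed (median 0.77), with the kinase Tbk1 at 1.03 ± 0.41 (SE; adjusted p = 0.273) and the double-stranded RNA binder Stau2 at -0.36 ± 0.16 (SE; adjusted p = 0.332).

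Among hosts of synaptic genes Erc1 and Gabra2 rose and Cplx2 fell, beside 0.394% and 0.614% of all hosts. Of 50 glutamatergic postsynaptic genes, 43 were tested without replicate 3 and none passed (median -0.07). Dlgap1, a scaffold of the postsynaptic density, was at -0.07 ± 0.16 (SE; adjusted p = 0.895) and Shank3, another, at -1.02 ± 0.23 (SE; adjusted p = 0.0774). Of 51 presynaptic genes, 47 were tested, Erc1 rose and Cplx2 fell (median 0.33), the latter through the circle given above. The active zone gene Rims2 had 1911 and 541 reads in the wild type libraries, a spread wider than its difference from 1092, 772 and 1659 reads in Adar1-2KO. Of 27 GABAergic genes, 23 were tested and Gabra2 alone rose (median 0.15), while Gphn, the gephyrin scaffold, was at 0.18 ± 0.16 (SE; adjusted p = 0.679) and Gabra4 at -0.29 ± 0.20 (SE; adjusted p = 0.568). Of 43 voltage-gated channel genes, 36 were tested and none passed (median -0.01). The potassium channel gene Kcnj6 was at -0.51 ± 0.12 (SE; adjusted p = 0.0990) and the sodium leak channel gene Nalcn at 0.22 ± 0.14 (SE; adjusted p = 0.547). Of 35 known abundant hosts of brain circles, 34 were tested, none rose, and Tulp4, Rmst and Hipk3 fell (median -0.11), beside 0.614% of all hosts lower. Cdr1, host of a known miRNA-binding circle, was listed on ONT only in Adar1-2KO replicates 1 and 2, with 33 and 66 reads (adjusted p = 0.0504 without replicate 3). With 5 libraries none of these hosts passed.

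Cell type markers were read from the circles their genes host. Of 23 astrocyte markers 14 were tested. Without replicate 3 Glul, with no reads in plain AG-GT circles, fell (median of the 14 markers 0.28), beside 0.614% of all hosts lower. Their summed level without replicate 3 was 2135 to 2536 CPM in wild type and 1909 to 2452 CPM in Adar1-2KO. With 5 libraries it was 2146 to 2553 CPM and 1950.4 to 2452 CPM. Slc4a4, the bicarbonate transporter of astrocytes, was at 0.00 ± 0.17 (SE; adjusted p = 0.997). Of 28 oligodendrocyte markers 18 were tested and none passed (median -0.13). The transcription factor gene St18 was at 0.34 ± 0.21 (SE; adjusted p = 0.496). The summed level of the 18 markers without replicate 3 was 3755 to 4248 CPM in wild type and 3172 to 3644 CPM in Adar1-2KO. With 5 libraries it was 3774 to 4277 CPM and 2865 to 3722 CPM. Mog, Fa2h and Cspg4 were at 0. Few markers of microglia and endothelial cells hosted circles. Of 18 microglia markers 2 were tested, with Csf1r, Aif1, Itgam and Ptprc at 0. Of 19 endothelial and pericyte markers 1 was tested without replicate 3, with Cdh5 and Kdr at 0. The part of cell composition in the host calls was not tested.

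**Figure D5:**
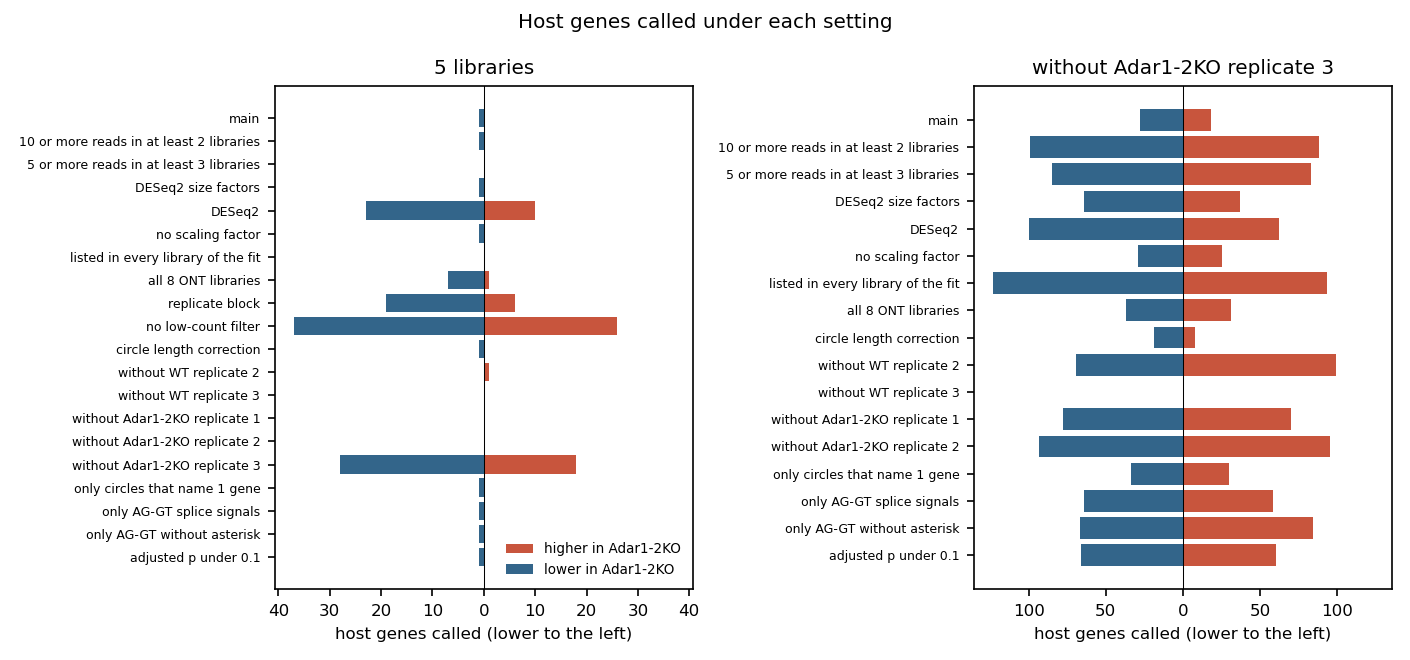
Numbers of host genes called higher (red, to the right) and lower (blue, to the left) in Adar1-2KO under each setting, with 5 libraries (left panel) and without Adar1-2KO replicate 3 (right panel). Host calls without replicate 3 number 46 as reported and range from 0 without wild type replicate 3 to 216 for genes listed in every library.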

How the data were processed

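The authors deposited, for each library, a table of circles with whole-number read counts that are not normalized. The caller of the ONT circles is not given in the sources used here. Coordinates are GRCm39 per the submitters' processing notes. The Illumina counts, used beside single results, came from CIRIquant 1.1.2 per the file headers and BWA 0.7.17 per the submitters' processing notes. In the Adar1-2KO Illumina tables the counts stand 1 column right of their headers, which was corrected. Each deposited count was used as it stands, and the number of other per-sample columns left aside was 0.

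Circles were matched by exact coordinates. Reads with no gene (7.54% to 10.6% in the 5 libraries compared) stayed out of the host sums. Reads naming several genes (1.05% to 1.16%) were summed under the joint name. Strand use in gene assignment is not stated, so overlapping and antisense genes cannot be separated. Features with 5 or more reads in at least 2 libraries (Illumina, 3 of 6) were tested with edgeR 4.0.16 in R 4.3.3 (TMM scaling, quasi-likelihood F test, two-sided, Benjamini-Hochberg adjusted p under 0.05), and standard errors were derived from the F statistic. DESeq2 1.42.0 was an alternative. Per-library measures were compared by an exact permutation test over 10 arrangements. The edgeR p-values set the group difference against the variation between these libraries, estimated partly from all tested features together.

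Depth was 186594 to 673705 reads per ONT library and 1516772 to 4308264 per Illumina library. Reads were amplified by PCR, so counting precision is overstated. The fitting was tested on simulated data with 100 features changed 4-fold and 100 changed 16-fold. With 5 libraries, 5% and 47% of the changed circles were called, and 23% and 50% of the changed hosts. Without replicate 3 these shares were 13% and 52% for circles and 37% and 79% for hosts. Unchanged features called were 9 circles and 2 hosts with 5 libraries, and 5 and 0 without replicate 3. A feature that did not pass can therefore still differ.

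Named features were, in each fit, up to 10 rises and 10 falls of largest fold among calls whose groups do not overlap. Where fewer passed, the 5 of lowest p were added. Circles and sums of Adarb1, Adar, Gria2 and Ifih1, the 10 most abundant circles and up to 4 most abundant hosts of each of the 14 gene lists were also named. Acap2, Ano3, Brsk2, Fat3, Gga1, Hipk3, Kmt2a, Rmst, Shank3, Tulp4, Zfyve9, Zmym4 and Cdr1 were named after their values were seen. The members and lists were chosen with earlier results of these data known. Alternatives covered the read minimum, scaling, tool, replicate block, splice signal, listing, circle merging, circle length, all 8 ONT libraries and each library left out. Wild type replicate 1 on ONT was not analysed here. Of the features the rule names, 2 host genes are not reported here.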

Additional observations from a re-analysis of the deposited data

How the results depend on the processing

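With 5 libraries, the 6 circle calls became 1 at a minimum of 10 reads, 0 with 5 reads in 3 libraries, 0 for circles listed in every library and 2 for plain AG-GT circles. They became 35 (12 higher, 23 lower) with DESeq2, 122 (67 and 55) with no minimum, 44 (13 and 31) with the replicate block, and 0 to 3 with 1 library left out. The 1 host call became 0 with 5 reads in 3 libraries or when listed in every library, 33 (10 and 23) with DESeq2, 8 (1 and 7) with all 8 ONT libraries, 63 (26 and 37) with no minimum, 25 (6 and 19) with the replicate block, and 0 to 46 with 1 library left out.

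Without Adar1-2KO replicate 3, the 3 circle calls became 85 (46 higher, 39 lower) at 10 reads, 66 (47 and 19) with 5 reads in 3 libraries, 171 (84 and 87) with DESeq2, 6 with no scaling, 280 (155 and 125) when listed in every library, 5 with all 8 libraries, 4 with the length correction, 5 for AG-GT circles, 33 (23 and 10) for plain ones, 6 with merging within 20 bases, 28 (13 and 15) at an adjusted p under 0.1, and 1 to 271 with 1 library left out. The 46 host calls became 187 (88 and 99), 168 (83 and 85) and 162 (62 and 100) at 10 reads, with 5 reads in 3 libraries and with DESeq2. They were 101 (37 and 64) with DESeq2 size factors, 216 (93 and 123) when listed in every library, 27 (8 and 19) with the length correction, 122 (58 and 64) for AG-GT circles, 151 (84 and 67) for plain ones, 126 (60 and 66) at an adjusted p under 0.1, and 0 to 188 with 1 library left out. The cause of these shifts was not tested. Where 1 library of a group remained, it was assumed to vary like the others.

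The labels do not say that a replicate number marks anything shared. Deviations of same-numbered libraries from their group means correlated at -0.067 and -0.076 over 3406 host genes. Deviations of the 2 wild type libraries mirror each other, so these are not separate checks and cannot exclude pairing. The block shows only how the calls move. Without replicate 3 the groups share 1 number, and no block could be fitted. The median log2 difference over all circles moved from 0.09 to -0.05 with no scaling (from 0.04 to -0.08 without replicate 3). Adar circles turned from 0.10 (log2) to -0.84 with the replicate block, -0.18 and -0.34 without Adar1-2KO replicate 1 or 2, and -0.39 for plain AG-GT circles. Over single circles and hosts, 786 alternative values held no reversed call, and 64 lost and 83 gained a call. The Malat1 circle passed in every setting that tested it with 5 libraries, except the fit of all 8 ONT libraries. The Cplx2 and Zbtb20 circles lost their call without Adar1-2KO replicate 1 or 2, the Wdr49 and LOC118568312 circles without any 1 of the 3, and these 4 circles at a minimum of 10 reads.

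The Adar1-2KO minus wild type difference in listed circles, 10729, became -3252 at equal depth, and ranged from 4543 to 16232 with 1 library left out. The -3252 became 603 as circles with 5 or more reads, and ranged from -4408 to -1215. Shares of reads, in percentage points, are given first over all listed circles and then over circles with 5 or more reads. Ranges over all listed circles with 1 library left out stand in brackets. The 100 most abundant circles went from -2.10 to -4.78 (-2.98 to -1.22) and plain AG-GT from -2.21 to -4.22 (-3.04 to -1.29). AG-GT with an asterisk went from 1.19 to 2.91 (0.670 to 1.69) and exon from -1.90 to -4.25 (-2.50 to -1.29). Intron went from 0.0719 to 0.594 (-0.0148 to 0.159) and intergenic from 1.40 to 2.92 (0.739 to 1.98). The 10 most abundant circles ranged from -1.12 to -0.0913. Median length went from -106.5 to -79.8 bases with only circles of 5 or more reads. Over all listed circles it ranged from -121 to -92 with 1 library left out. The read-weighted median length differed by -93.0 bases. The settings that use plain AG-GT, listing, merging or length were chosen after seeing the data, as were most of those without replicate 3. The minimum of 2 listed reads and the depth of the wild type libraries limit what absence from a table shows.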

Other observations

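Hosts near the altered genes were read for their circles, a window of 10 megabases to either side chosen after values were seen. Without Adar1-2KO replicate 3, 56 hosts were tested near Adarb1, where Slc41a2, a magnesium transporter gene, was called lower (1.79%, median log2 difference 0.03). Near Gria2, 37 hosts were tested and Wdr49 was called lower (2.70%, median 0.11). Near Adar, 52 hosts were tested and none was called (median 0.14). The share called over all hosts was 1.01%. The part of position in the Slc41a2 and Wdr49 results was not tested.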
